A study of Caenorhabditis elegans with 8 samples.

Results

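The genes described here are the lysosomal acid lipase-like genes of the *lipl* family and the cytosolic lipase genes *atgl-1* and *hosl-1* of *Caenorhabditis elegans*. They were chosen by gene name, and 9 of the 10 named genes, 7 of them *lipl* genes, were found among the 17521 genes of the expression table, while *lipl-8* was not analysed here. Expression was measured by RNA sequencing of polyadenylated RNA in worms of the wild-type strain N2. There were 4 samples given 50 μM atracurium for 24 h and 4 samples given the water vehicle for the same time. Atracurium is a muscle relaxant that blocks acetylcholine receptors at the neuromuscular junction. Treatment ran between the fourth larval stage and day 1 of adulthood, whole worms were used, and the plates of both groups also held 5-fluorouracil according to the sample labels, so neither group is free of that agent. The study asked which genes, in particular targets of the FOXO transcription factor DAF-16, respond to atracurium.

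Worms store fat as triglyceride in lipid droplets, mainly in the intestine and the hypodermis. It is released along 2 routes. On the droplet surface, ATGL-1, the ortholog of adipose triglyceride lipase, starts the breakdown of triglyceride, and HOSL-1 is the ortholog of hormone-sensitive lipase. In the lysosome, acid lipases of the LIPL family break down lipids at low pH, including fat delivered by autophagy. Several *lipl* genes are known to be induced by fasting through HLH-30, the ortholog of TFEB, and repressed in fed worms by MXL-3. LIPL-4 is also known from long-lived worms that lack a germ line. It is known as well to send a lipid signal to the nucleus through the lipid-binding protein LBP-8 and the nuclear receptors NHR-49 and NHR-80.

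No lipase gene passed an adjusted p of 0.05. The genes with the smallest p were *atgl-1*, 1.11-fold higher in atracurium samples, *hosl-1*, 1.14-fold higher, and the fasting-induced lysosomal lipase gene *lipl-3*, 1.42-fold higher. *lipl-4* and *lipl-1* had lower means in atracurium samples. Reads were few for *lipl-3*, *lipl-1* and *lipl-4* alike, at 29 to 73, 22 to 84 and 3 to 29 a sample. The most abundant lysosomal lipase genes, *lipl-5* and *lipl-7*, were 1.08-fold and 0.978-fold the water vehicle level.

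The deposited values are log2 CPM, the log2 of counts scaled to a common library size, with a small prior count added to each gene. The 8 libraries held between 27922986 and 60015200 reads on the genes of the table. The groups were compared by limma-trend (limma with a trend of the variance on the mean) over the 17521 genes, two-sided, and p was adjusted by Benjamini-Hochberg. Of all genes, 0.177% had an adjusted p under 0.05 (0.143% higher and 0.0342% lower with atracurium) and 3.07% an unadjusted p under 0.01 (1.20%, or 210 genes, higher and 1.87%, or 328 genes, lower). These counts were 299 and 272 after a shift of the samples to a common median, and 284 and 267 after quantile normalization, so the balance of the directions over all genes depends on the scaling. Over genes, which are not independent replicates, the log2 fold change was correlated with exonic length (Spearman 0.423, 17493 genes). Atracurium replicates 2 and 4 were the libraries that stood apart in a principal component analysis: replicate 2 lay at 77.5 on the first component, with the rest at 6.85 or below, and replicate 4 at −64.8 on the second, with the rest at −3.38 or above.

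Of the 9 lipase genes, 0 passed an adjusted p of 0.05 by limma-trend and 0 by limma-voom run on the reads recovered from the deposited values, against 0.177% of all genes by either test (0.143% higher and 0.0342% lower by limma-trend). At an unadjusted p of 0.05 the count was 4 by limma-trend, of which *atgl-1*, *hosl-1* and *lipl-3* were higher and *lipl-4* lower, and 5 by limma-voom, which added *lipl-1*. Over all genes limma-trend gave 11.5% and limma-voom 12.7% past an unadjusted p of 0.05. At an unadjusted p of 0.01 the count was 0 in each direction, against 1.20% of all genes higher and 1.87% lower. The median log2 fold change of the 9 genes was 0.16, against −0.01 over all genes, with 6 genes above 0 and 3 below. After removal of the length trend the median was 0.10 for the 9 genes. The 4 atracurium samples lay wholly above the 4 water vehicle samples in 2 genes, *atgl-1* and *lipl-3*, and wholly below them in 0, where this held for 3.41% and 3.75% of all genes.

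**Figure D1:**
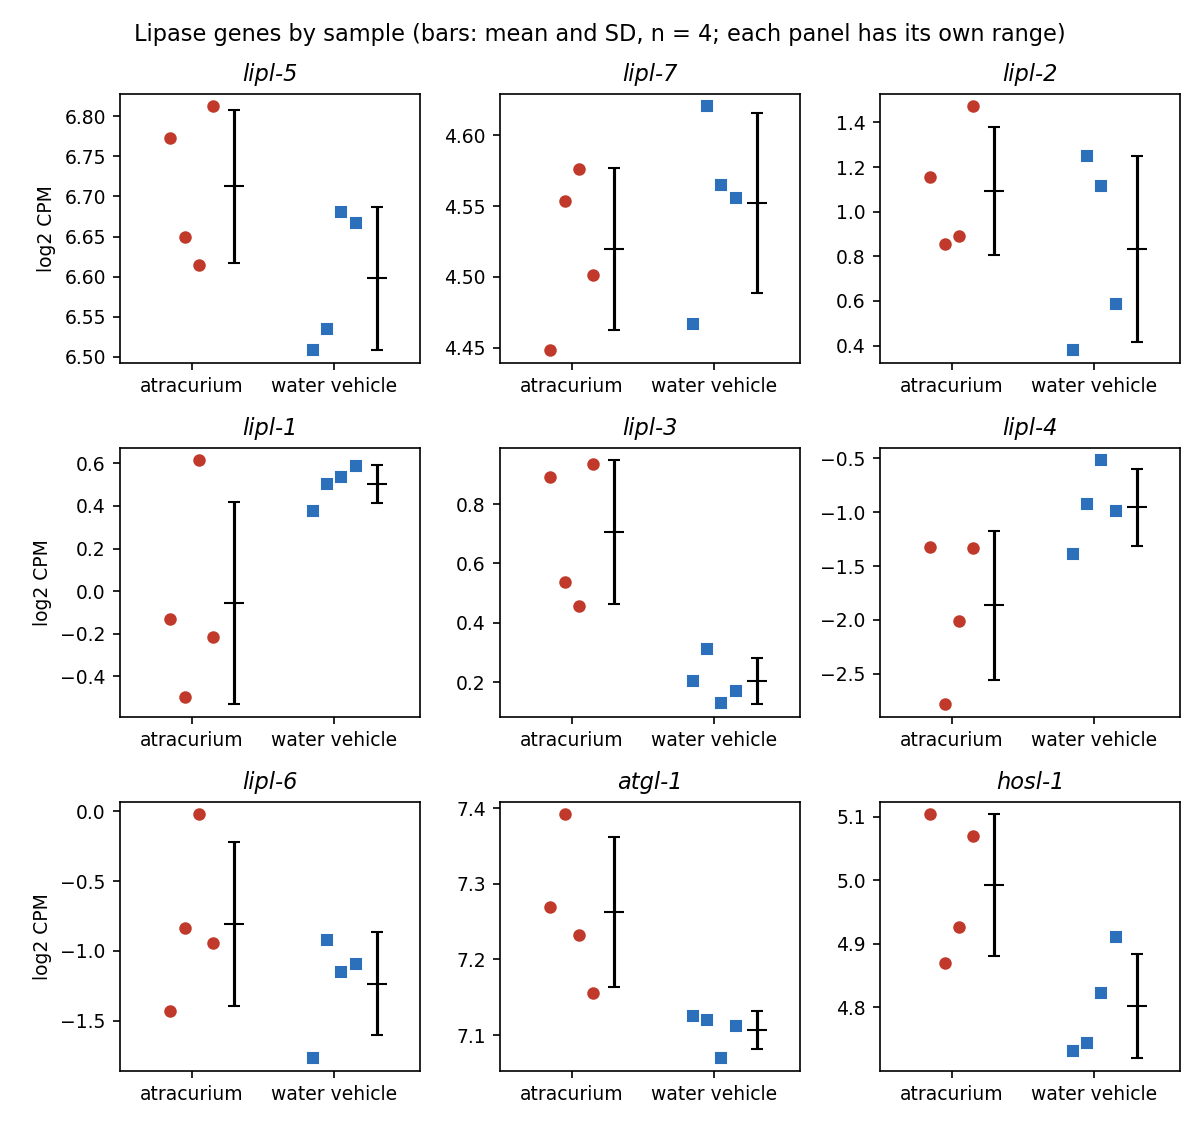
Log2 CPM of the 9 lipase genes, 1 panel a gene, with 1 point a sample, and the mean and SD (n = 4) as a bar beside each group. In *atgl-1* and *lipl-3* every atracurium sample sits above every water vehicle sample, while in the other 7 genes the groups overlap, and each panel has its own range.

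*atgl-1* (WBGene00015484), the patatin-like lipase that starts triglyceride breakdown, lies on the minus strand of chromosome III of WBcel235 from 6415772 to 6419459, with an exonic length of 2640 nt. Its log2 CPM was 7.27, 7.39, 7.23 and 7.16 in atracurium replicates 1 to 4, against 7.12, 7.12, 7.07 and 7.11 in water vehicle replicates 1 to 4. Each atracurium sample was above all water vehicle samples, with replicate 4 close to them and replicate 2 farthest away. The coefficient of variation on the CPM scale was 6.95% among the atracurium samples, where counting alone would give 1.41%, and 1.74% among the water vehicle samples, where counting alone would give 1.45%. The log2 fold change was 0.16 (standard error 0.06, 95% interval 0.03 to 0.28, unadjusted p = 0.0210, adjusted p = 0.362 by limma-trend). After the trend with gene length was removed from each sample, it was 0.09 (unadjusted p = 0.105 by limma-trend). Without atracurium replicate 4 it was 0.19, where the unadjusted p was 0.00580 and the adjusted p = 0.184 by limma-trend.

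*hosl-1* (WBGene00016704), on the plus strand of chromosome X from 4637121 to 4643695, is the longest of these genes, with an exonic length of 3439 nt. Its log2 CPM was 5.10, 4.87, 4.93 and 5.07 in atracurium replicates 1 to 4, against 4.73, 4.74, 4.82 and 4.91 in water vehicle replicates 1 to 4. The groups overlapped only because atracurium replicate 2 lay below water vehicle replicate 4. The log2 fold change was 0.19 (standard error 0.08, 95% interval 0.02 to 0.36, unadjusted p = 0.0297, adjusted p = 0.390 by limma-trend). It was 0.10 (unadjusted p = 0.216) after removal of the length trend, and 0.23 (unadjusted p = 0.00845) without atracurium replicate 2, both by limma-trend. Thus the cytosolic lipase genes, which are the longest of the 9 genes, had like differences of up to 1.14-fold. For both the value was reduced by more than 1.5 times when the length trend was taken out.

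*lipl-3* (WBGene00020016), a lysosomal lipase gene known to be induced by fasting, lies on the minus strand of chromosome V from 521595 to 524218. Its annotated exons share 23 nt with *srw-107* on the same strand, and reads that touch both genes would be counted for neither under the default counting mode. It was covered by 63, 47, 41 and 60 reads in atracurium replicates 1 to 4, against 37, 73, 29 and 31 reads in water vehicle replicates 1 to 4, of which replicate 2 is the most deeply sequenced library. On the log2 CPM scale these are 0.89, 0.54, 0.46 and 0.94 with atracurium, against 0.20, 0.31, 0.13 and 0.17 in the water vehicle. The lowest atracurium sample, replicate 3, was above the highest water vehicle sample, replicate 2, and the water vehicle samples lay close together. The coefficient of variation on the CPM scale was 17.3% with atracurium, where counting alone would give 14%, and 5.79% in the water vehicle, where counting alone would give 16.4%. The log2 fold change was 0.50 (standard error 0.21, 95% interval 0.04 to 0.96, unadjusted p = 0.0344, adjusted p = 0.403 by limma-trend), and 0.50 after removal of the length trend. The groups did not overlap in any of the 19 alternative settings, which reuse the same reads and so add no independent evidence. Over these settings the adjusted p lay between 0.201 and 0.654 by limma.

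*lipl-4* (WBGene00019376), the lipase gene tied to the longevity of worms without a germ line, lies on the plus strand of chromosome V from 6550171 to 6552186, with 2 genes overlapping its exons on the other strand, which counting by strand keeps apart. It had 12, 3, 6 and 11 reads in atracurium replicates 1 to 4, against 11, 29, 18 and 13 in water vehicle replicates 1 to 4. Scaled to depth, the summed reads gave a ratio of 0.520 of atracurium to water vehicle (95% exact binomial interval 0.331 to 0.799, for counting error only). The groups overlapped, since atracurium replicates 1 and 4, at −1.33 log2 CPM each, lay above water vehicle replicate 1 at −1.39. The log2 fold change was −0.91 (standard error 0.40, 95% interval −1.78 to −0.03, unadjusted p = 0.0428, adjusted p = 0.426 by limma-trend). With so few reads, counting alone would give a coefficient of variation of 41.1% among the atracurium samples, where 51.1% was observed. Without atracurium replicate 2, which had 3 reads, the difference was −0.60, the value nearest to 0 over all settings, and the most negative, −1.09, came without atracurium replicate 1.

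*lipl-1* (WBGene00010062), also known as a fasting-induced gene, lies on the plus strand of chromosome V from 12919986 to 12921692. It had 30, 22, 46 and 26 reads in atracurium replicates 1 to 4, against 42, 84, 39 and 42 in water vehicle replicates 1 to 4. On the log2 CPM scale atracurium replicate 3, at 0.62, was the highest of all 8 samples, while the other atracurium samples, at −0.13, −0.50 and −0.22, lay below all water vehicle samples, at 0.38, 0.51, 0.54 and 0.59. The log2 fold change was −0.56 (95% interval −1.13 to 0.01, unadjusted p = 0.0551, adjusted p = 0.440 by limma-trend). Without atracurium replicate 3 it was −0.78 (unadjusted p = 0.00727, adjusted p = 0.302 by limma-trend) and the groups no longer overlapped, so that this gene's value rests on whether that sample is kept. *lipl-1* and *lipl-3*, both known as fasting-induced, therefore had differences of opposite sign, and neither passed the adjusted threshold.

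The most abundant *lipl* gene was *lipl-5* (WBGene00022642; chromosome V from 385746 to 387740), another fasting-responsive lysosomal lipase gene. Its log2 CPM was 6.77, 6.65, 6.61 and 6.81 in atracurium replicates 1 to 4, against 6.51, 6.54, 6.68 and 6.67 in water vehicle replicates 1 to 4, on 2866 to 5712 reads a sample. The groups overlapped, and the log2 fold change was 0.11 (95% interval −0.03 to 0.26, or 0.979-fold to 1.20-fold, adjusted p = 0.505 by limma-trend). *lipl-7* (WBGene00008510), the *lipl* gene on chromosome IV, from 10239278 to 10241823, had the narrowest spread of the *lipl* genes, with log2 CPM between 4.45 and 4.58 in atracurium samples and between 4.47 and 4.62 in water vehicle samples. Its log2 fold change was −0.03 (95% interval −0.19 to 0.12, or 0.878-fold to 1.09-fold, adjusted p = 0.879 by limma-trend). The sign of this small difference depended on the scaling, as it was 0.03 when samples were shifted to a common median.

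*lipl-2* (WBGene00009773; chromosome V from 9791567 to 9793241) had 56 to 88 reads in atracurium samples and 42 to 143 in water vehicle samples. Its log2 fold change was 0.26 (95% interval −0.27 to 0.79, adjusted p = 0.674 by limma-trend), with values from 0.11 without water vehicle replicate 1 to 0.40 without water vehicle replicate 2. *lipl-6* (WBGene00021963; chromosome V from 6931475 to 6934312) had 11 to 29 reads in atracurium samples and 8 to 29 in water vehicle samples. Its log2 fold change was 0.43 (95% interval −0.36 to 1.22, adjusted p = 0.645 by limma-trend), with values from 0.165 without atracurium replicate 3 to 0.64 without atracurium replicate 1. In both genes the groups overlapped, and a fold change of 1.5 in the upward direction was inside the interval, so at this depth and spread neither a rise of that size nor its absence was shown.

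**Figure D2:**
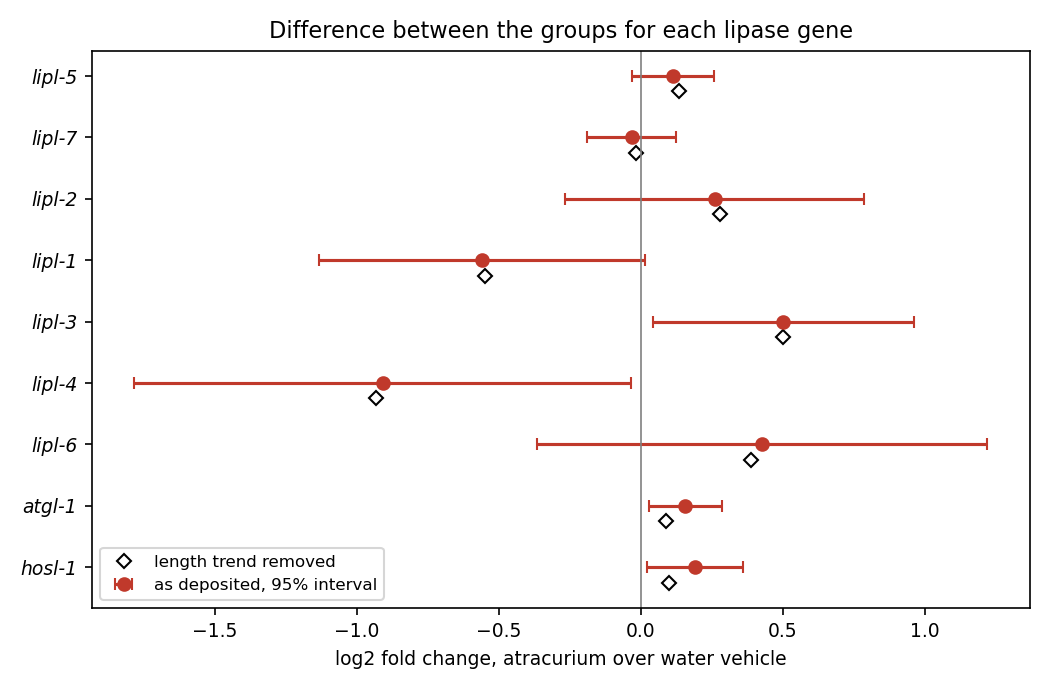
Log2 fold change of atracurium over water vehicle for the 9 lipase genes, with 95% intervals from limma-trend as bars around filled points, and the value after removal of the trend with gene length as an open diamond. The intervals of *lipl-4*, *lipl-6* and *lipl-1* are wide, and the diamonds leave the filled points most clearly in *atgl-1* (0.09 against 0.16) and *hosl-1* (0.10 against 0.19).

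To compare levels between genes, CPM were divided by exonic length in kb. With atracurium the order of the means was *lipl-5* (83.2 ± 5.49 CPM per kb, SD, n = 4), *atgl-1* (58.3 ± 4.05), *lipl-7* (17.7 ± 0.702), *hosl-1* (9.26 ± 0.717), *lipl-2* (1.65 ± 0.352), *lipl-3* (1.11 ± 0.192), *lipl-1* (0.709 ± 0.272), *lipl-6* (0.287 ± 0.137) and *lipl-4* (0.146 ± 0.0747). In the water vehicle it was *lipl-5* (76.8 ± 4.72), *atgl-1* (52.2 ± 0.907), *lipl-7* (18.1 ± 0.795), *hosl-1* (8.11 ± 0.467), *lipl-2* (1.39 ± 0.405), *lipl-1* (1.02 ± 0.0646), *lipl-3* (0.763 ± 0.0442), *lipl-4* (0.286 ± 0.0794) and *lipl-6* (0.196 ± 0.0518). The first 4 genes kept their order, and their samples did not overlap with those of the next gene in either group.

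Among the low genes the order was less clear. *lipl-3* and *lipl-1* changed places between the groups: with atracurium their samples overlapped, at 0.916 to 1.29 CPM per kb for *lipl-3* and 0.488 to 1.11 for *lipl-1*, and in the water vehicle they did not, at 0.722 to 0.824 for *lipl-3* and 0.930 to 1.08 for *lipl-1*. *lipl-4* and *lipl-6* also changed places, and overlapped in both groups. *lipl-2* and *lipl-1* overlapped in the water vehicle. *lipl-5*, at the 89.2 percentile of all genes with a length in the water vehicle, and *lipl-6*, at the 9.70 percentile, mark the span of the family in these worms.

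Summed per kb, the 7 *lipl* genes came to 107, 101, 100 and 111 CPM per kb in atracurium replicates 1 to 4, against 92.1, 96.6, 104 and 102 in water vehicle replicates 1 to 4, so the groups overlapped. *lipl-5* alone made up 77.6% to 80.7% of this sum in atracurium samples and 76.0% to 78.9% in water vehicle samples, so that the sum follows 1 gene. *atgl-1* and *hosl-1* together came to 68.4, 72.2, 65.8 and 63.7 CPM per kb with atracurium, against 60.6, 60.4, 59.1 and 61.1 in the water vehicle. These groups did not overlap, as in *atgl-1*, which makes up most of the sum.

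**Figure D3:**
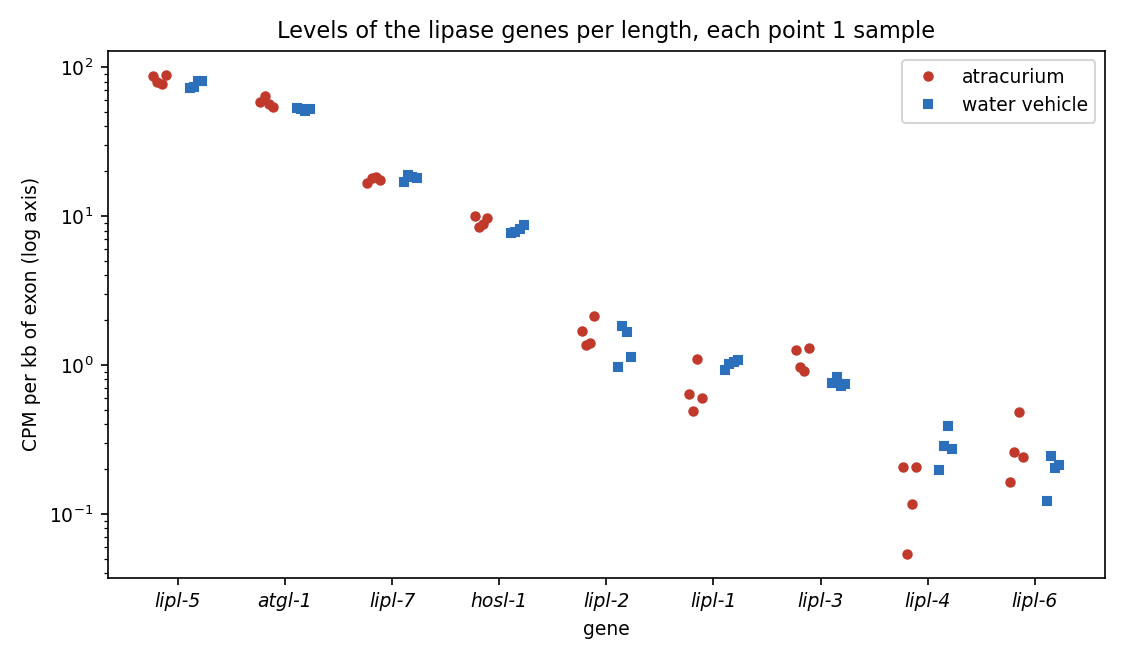
Level of each lipase gene in CPM per kb of exon on a log axis, 1 point a sample, with atracurium to the left of the water vehicle for each gene, in the order of the water vehicle means. *lipl-5* and *atgl-1* lie above 50 CPM per kb in all samples, and *lipl-4* and *lipl-6* below 1.

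Of the 7 *lipl* genes, 6 lie on chromosome V and are spread along it rather than clustered. The nearest neighbors among them, *lipl-5* and *lipl-3*, are 134 kb apart with 41 protein-coding genes between them, and *lipl-4* and *lipl-6* are 379 kb apart. *lipl-3* and *lipl-5* had positive differences, and *lipl-4* and *lipl-6* had differences of opposite sign. As family members share sequence, reads that match several of them equally could be lost or misassigned.

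The genes whose log2 CPM across the 8 samples was most like that of *atgl-1*, among 10842 genes with a mean above 1, were F19F10.11 (Pearson r = 0.988), F17A9.5 (0.983) and *hcp-1* (0.982). In all of them atracurium replicate 2 was the highest sample, at 7.21, 5.42 and 9.24 log2 CPM, as it was in *atgl-1* at 7.39. These correlations are given as a description: the samples share the group difference and that library.

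Genes that control or accompany fat mobilization were read from a list of 18, all measured. By limma-trend 0 of these passed an adjusted p of 0.05, while 0 had an unadjusted p under 0.01 and 1 under 0.05, and their median log2 fold change was 0.04, against −0.01 over all genes. The exception was *lbp-8*, which carries the LIPL-4 signal to the nucleus. It had 27, 27, 21 and 18 reads in atracurium replicates 1 to 4, against 38, 64, 24 and 33 in water vehicle replicates 1 to 4, a ratio of 0.674 after scaling to depth (95% exact binomial interval 0.516 to 0.876, for counting error only). Its atracurium samples all lay below its water vehicle samples in log2 CPM, with a log2 fold change of −0.54 (unadjusted p = 0.0470, adjusted p = 0.430 by limma-trend). *lbp-8* is short, with 528 nt of exon, and after removal of the length trend the difference was −0.24 (unadjusted p = 0.447 by limma-trend) and the groups overlapped. They also overlapped with a common median (unadjusted p = 0.0971) and with quantile normalization (unadjusted p = 0.113), both by limma-trend. *aak-2*, a catalytic subunit of the energy sensor AMPK, had the second smallest p, with a log2 fold change of 0.14 (unadjusted p = 0.0541, adjusted p = 0.439 by limma-trend).

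Transcription factors and a co-activator on this list had small differences, none past a threshold when all 8 samples were used. The log2 fold change was 0.04 for *hlh-30*, the activator of *lipl* genes in fasting, and −0.06 for *mxl-3*, their repressor in fed worms. Without atracurium replicate 2 the value of *hlh-30* was 0.17 (unadjusted p = 0.0215, adjusted p = 0.347 by limma-trend), and without atracurium replicate 1 it was −0.02. For *lid-1*, which encodes the co-activator of ATGL-1, it was −0.02. It was 0.10 for *daf-16*, the FOXO gene itself, 0.08 for *nhr-49* and −0.04 for *nhr-80*. Without atracurium replicate 4 *daf-16* was at 0.175 and its groups did not overlap (unadjusted p = 0.0129, adjusted p = 0.204 by limma-trend). With sample weights *daf-16* was at 0.135 (unadjusted p = 0.0422, adjusted p = 0.269 by limma). After removal of the length trend *daf-16*, with 3685 nt of exon, was at 0.0047 (unadjusted p = 0.94 by limma-trend). Adjusted p for these 6 genes by limma-trend lay between 0.601 for *nhr-49* and 0.905 for *nhr-80*. Since HLH-30 and DAF-16 are known to act by moving into the nucleus, their RNA levels do not measure their activity.

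Other predicted lipases were a list of the *lips* genes and the fasting-induced lipase genes *fil-1* and *fil-2*, of which 15 of 19 were measured. Of these 0 passed an adjusted p of 0.05, 0 an unadjusted p of 0.01 and 0 an unadjusted p of 0.05 by limma-trend, and their median log2 fold change was 0.01. The smallest p belonged to *lips-12*, at −0.64 (unadjusted p = 0.120), and to *lips-7*, at 0.75 (unadjusted p = 0.169), both with samples under 10 reads. *lips-7* had 4 reads in atracurium replicate 1 and 24 to 28 in the other atracurium samples, against 5 to 26 in water vehicle samples, and without that replicate its value was 1.34 (unadjusted p = 0.00289, adjusted p = 0.335 by limma-trend). The fasting-induced genes *fil-1* and *fil-2* were at 0.19 and −0.28, with unadjusted p of 0.654 and 0.541 by limma-trend.

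In the list of lipid droplet and triglyceride synthesis genes, 0 of 14 passed an adjusted p of 0.05 by limma-trend, and 3 passed an unadjusted p of 0.05, 2 of them higher. *dgat-2*, which encodes the acyltransferase of the last step of triglyceride synthesis, had the smallest p. Its log2 CPM averaged 4.28 ± 0.13 in atracurium samples and 4.59 ± 0.11 in water vehicle samples (SD, n = 4 each), and the log2 fold change was −0.31 (unadjusted p = 0.00470, adjusted p = 0.283 by limma-trend), without overlap of the groups. Its unadjusted p was 0.0248 with a common median, and between 0.0105 and 0.0192 when water vehicle replicate 1, 2 or 3 or atracurium replicate 3 was left out (limma-trend). *acs-22*, a fatty acid transporter and acyl-CoA synthetase that works with DGAT-2 at the droplet, had a log2 fold change of 0.20 (unadjusted p = 0.0160, adjusted p = 0.346 by limma-trend). Its groups overlapped, and after removal of the length trend it was at 0.14 (unadjusted p = 0.0613 by limma-trend). It was at 0.15 with sample weights (unadjusted p = 0.0512 by limma). Without water vehicle replicate 3 it was at 0.26 (unadjusted p = 0.00397 by limma-trend). The list's median was 0.10, and 0.05 after removal of the length trend.

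Of 26 lysosomal enzymes and membrane proteins, 0 passed an adjusted p of 0.05 by limma-trend, and 1, *asah-1*, passed unadjusted p values of 0.01 and 0.05. This gene encodes an acid ceramidase, a lysosomal enzyme of sphingolipid breakdown. Its log2 CPM averaged 3.32 ± 0.20 in atracurium samples and 2.79 ± 0.16 in water vehicle samples (SD, n = 4 each), without overlap, and the log2 fold change was 0.53 (unadjusted p = 0.00126, adjusted p = 0.207 by limma-trend), and its adjusted p by limma was 0.0315 with sample weights and 0.0493 without atracurium replicate 2. The second smallest p was that of the acid sphingomyelinase gene *asm-3*, at −0.54 (unadjusted p = 0.0565, adjusted p = 0.443 by limma-trend). The median of the list was 0.04, with 21 genes above 0 and 5 below.

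**Figure D4:**
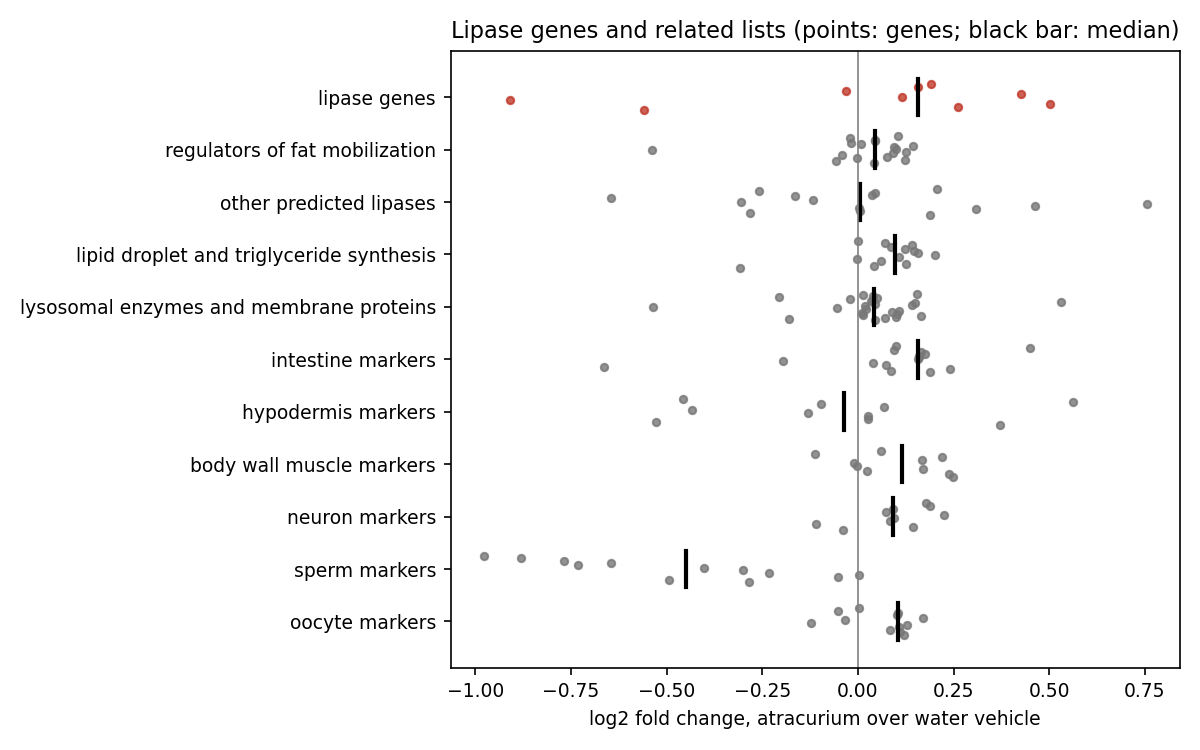
Log2 fold change of atracurium over water vehicle for each gene of the lipase group (red) and of the related lists and tissue markers (grey), with the median of each list as a black bar. The lipase and intestine marker medians were both 0.16 on the deposited scale, where that of the sperm markers was −0.45, while with quantile normalization the lipase median was 0.12 and that of the intestine markers 0.08.

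Because the RNA came from whole worms, fewer cells of a tissue and less RNA per cell cannot be told apart. Of 15 intestine markers, 13 were above 0 and the median log2 fold change was 0.16, which was 0.22 with a common median, 0.08 with quantile normalization and 0.07 after removal of the length trend. Their summed level was 29000 to 33700 CPM in atracurium samples and 25400 to 30200 CPM in water vehicle samples. Most of it came from the yolk protein genes among these markers. No intestine marker had 0 reads in any sample, and 1, the cathepsin B-like protease gene *cpr-1*, passed an unadjusted p of 0.01, at 0.45 (adjusted p = 0.0999 by limma-trend, and 0.0148 after removal of the length trend, 0.0257 without atracurium replicate 2). The part of these markers in the lipase values was not tested.

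The other tissue markers differed from each other. The 10 hypodermis markers had a median of −0.04 and summed to 702 to 982 CPM with atracurium and 809 to 951 CPM in the water vehicle. The cuticle collagen gene *dpy-5* was at −0.46, past an unadjusted p of 0.01 by limma-trend. Most of the summed CPM came from another collagen gene of the list. The groups of *dpy-5* overlapped, and its unadjusted p by limma was 0.0188 with a common median, 0.0220 with quantile normalization, 0.0158 by limma-voom and 0.0218 after removal of the length trend. The 10 body wall muscle markers had a median of 0.115 and summed to 4210 to 4960 CPM with atracurium and 3910 to 4420 CPM in the water vehicle, and the myosin genes *myo-3* and *unc-54* passed that p, at 0.25 and 0.24. After removal of the length trend these were 0.13 and 0.12, with overlapping groups (unadjusted p = 0.0712 and 0.0760 by limma-trend). The 10 neuron markers had a median of 0.09 and summed to 355 to 412 CPM with atracurium and 367 to 404 CPM in the water vehicle, and the neuropeptide processing gene *egl-3* passed, at 0.225. With the length trend removed, *egl-3* was at 0.16, and its groups overlapped (unadjusted p = 0.0345 by limma-trend).

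In the germ line, 12 of 14 sperm markers were measured and 11 of them were below 0, with a median of −0.45. They summed to 40.1 to 50.8 CPM with atracurium and 53.7 to 59.6 CPM in the water vehicle. The sperm genes *ssp-10*, at −0.73, and *msd-4*, at −0.98, passed an unadjusted p of 0.01 by limma-trend. For *msd-4* the unadjusted p by limma was 0.0530 with robust moderation, 0.0407 without the trend and 0.0320 without water vehicle replicate 2. It was 0.00251 after removal of the length trend. For *ssp-10* it was 0.0117 without the trend. Removal of the length trend brought *ssp-10* to −0.265, with overlapping groups (unadjusted p = 0.140 by limma-trend), and *msd-4* to −0.51, and without atracurium replicate 2 *msd-4* was at −0.57. The sperm median was −0.28 after this removal. The 12 oocyte markers had a median of 0.10 and summed to 10800 to 11600 CPM with atracurium and 9890 to 10800 CPM in the water vehicle. No gene of these 6 lists passed an adjusted p of 0.05 by limma-trend on the values as deposited. With sample weights *cpr-1* (adjusted p = 0.0273) and *dpy-5*, *unc-54* and *ssp-10* (adjusted p = 0.0489 each) passed it by limma, and *cpr-1* also did with robust moderation of the variances (adjusted p = 0.0331). Their part in the lipase values was not tested.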

How the data were processed

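The authors trimmed reads with Trimmomatic 0.32, aligned them to WBcel235 (Ensembl release 91) with HISAT2 2.1.0, counted them by strand with HTSeq 0.11.0, dropped genes that did not exceed 2 counts in 3 or more samples, and normalized the counts with edgeR 3.26.8. Per the labels and methods, the values the authors deposited are log2 CPM. Genes with fewer reads were therefore not tested.

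Deposited values were used as they were, with limma 3.58.1 in R 4.3.3, 2 groups and no covariate, with thresholds of 0.05 on the adjusted p and 0.01 on the unadjusted p. Read numbers were recovered from the steps of the values, of which 100% came within 0.1 of a whole number. Intervals of read ratios rest on reads summed within each group, so they hold for counting error alone and leave out the spread between samples. The libraries had no molecular identifiers, so copies of a fragment could not be told apart. Coordinates and exonic lengths (the union of exons) are from Ensembl release 115 of WBcel235, with 17493 of 17521 genes matched. The test was run on simulated reads in which 200 genes were changed, with genes of low read number left out of these. That run does not show how the test does for genes with few reads, small differences or libraries that stand apart.

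Genes named are the 10 listed lipases, genes of other lists past an unadjusted p of 0.01, the 2 smallest p of each fat and lysosome list, and the 3 genes most like the lipase of smallest p. The regulators named beside them and the *fil* genes were chosen after their values were seen. Members and lists were chosen with earlier results of these data known.

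Alternatives were other scalings, limma-voom, no trend, robust moderation, sample weights, prior counts of 0.5 and 5, log2 CPM above 0 in at least 4 samples, a replicate block, removal of the length trend by lowess (span 0.3) and each sample left out.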

Additional observations from a re-analysis of the deposited data

How the results depend on the processing

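No lipase gene passed an adjusted p of 0.05 under any of the alternatives, and the lowest adjusted p of any of them was 0.135, for *atgl-1* with sample weights, by limma. The number of lipase genes past an unadjusted p of 0.01, which was 0, became 1 without the mean-variance trend (*lipl-3*), 2 with sample weights (*atgl-1* and *hosl-1*), and 0 to 1 with single samples left out. All genes past an adjusted p of 0.05 numbered 31, against 16 without the trend, 139 with sample weights, and 17 to 78 with single samples left out, and those past an unadjusted p of 0.01 numbered 538, against 1098 with sample weights and 306 to 883 with single samples left out. The lowest and highest of these came without atracurium replicates 1 and 2 for the adjusted p, and without water vehicle replicate 3 and atracurium replicate 4 for the unadjusted p. Every lipase gene kept its direction except *lipl-7*, which was 0.0312 with a common median. *lipl-4* and *lipl-6* were not in the table filtered on low values.

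Whether the replicate numbers pair the samples was not settled. Deviations of samples with the same number correlated at −0.14, −0.13, 0.03 and 0.14 for numbers 1 to 4. Atracurium replicate 4 was most like water vehicle replicate 4, and the other atracurium samples were most like a water vehicle sample of another number. With the replicate number as a block, 20 genes of the table and 0 lipase genes passed an adjusted p of 0.05.

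Of 570 list values under the alternatives, 489 moved by less than the limits set and 81 moved, 63 of them counts and 18 medians, and 9 medians had another sign. The cause of these shifts was not tested. Depth limits *lipl-4* and *lipl-6* most, with 3 to 29 and 8 to 29 reads a sample.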
